A study of Mus musculus with 27 samples.

Results

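The genes described here are 9 interferon response genes, namely Stat2, Irf9, Irf7, Isg15, Ifit1, Ifit3, Oasl2, Bst2 and Rtp4, which were chosen by their symbols out of 40129 genes listed for whole mouse retina. All 9 passed the filter on low values, and the test was run on 27137 genes. The retinas came from wild-type C57BL/6 mouse pups (C57BL/6J in the study's methods) of 4 groups. OIR mice went through oxygen-induced retinopathy, a model in which pups raised at first in room air breathe high oxygen for some days, so that vessels of the central retina regress, and then go back to room air. They were analysed at postnatal day 14 (OIR p14, 6 mice), when the retina is ischemic, or at day 17 (OIR p17, 8 mice), when retinal neovascularization is greatest. Controls were kept in room air throughout, until day 14 (nOIR p14, 6 mice) or day 17 (nOIR p17, 6 mice). A library came from a single retina or from the pooled retinas of a mouse. The study's methods give fewer litters than mice in each group, and the fewest litters for nOIR p17. Mice of a group were therefore in part littermates, and the labels do not show which. The p-values therefore treat mice as independent and measure the spread between mice only.

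Type I interferons are secreted when cells sense foreign or misplaced nucleic acids. They bind a receptor made of Ifnar1 and Ifnar2, which activates Stat2, and Stat2 joins Irf9 in a complex that binds the interferon-stimulated response element (ISRE) in the promoters of the genes that interferon induces. In the nervous system, microglia, astrocytes, endothelial cells and neurons can all respond, and interferon gamma, which has a receptor of its own, acts on an overlapping set of genes.

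At p17, 7 of the 9 genes were called higher in OIR retinas than in controls, against 7.39% of all genes tested. None was called lower, against 5.12%. Among the 7, the calls of Ifit1 and Rtp4 were lost with some other settings or without single mice. At p14 only Irf9 and Oasl2 passed the test, both higher in OIR retinas, against 3.18% of all genes tested. Irf7 was the only gene of the 9 whose OIR effect differed between the ages by limma. Stat2, which encodes a subunit of the same complex as Irf9, stayed within 1014 to 1552 normalized reads in all 26 mice and passed the test in no comparison.

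Recovered library totals ran from 17029536 to 33593428 reads per mouse. Rod photoreceptor genes (Nrl, Gnat1 and Pde6b) summed to between 286247 and 668204 normalized reads in every mouse, while the sum of lens genes (Cryaa, Cryba1 and Crygs) ranged from 2.66 to 26935 normalized reads across the 26 mice. The median lens sum was 279 in nOIR p14, 1807 in OIR p14, 1827 in nOIR p17 and 6231 in OIR p17 mice. By limma, 0 of these 3 lens genes were called between OIR and nOIR mice at either age. Single mice stood apart from their group in the genes described here, among controls and OIR mice alike. The highest value of the group belonged to nOIR p14 S7 in 6 of the 9 genes, to nOIR p17 S6 in 8, to OIR p14 S1 in 7 and to OIR p17 S3 in 6, and the lowest to OIR p17 S1 in 5. Results that rest on the controls S7 and S6 are also given without them. By construction, this raises OIR mice against controls for the genes in which these controls were the highest of their group.

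The ISRE is a sequence feature that part of these genes share, and the promoters are shown because the complex of Stat2 and Irf9 acts through it. Promoter windows from 250 bases before to 50 after the annotated start, taken from RefSeq on GRCm38.p6, were found for 8 of the 9 genes by symbol. The core letters of the ISRE, which are GAAA, any 2 bases and GAAA again, were searched on both strands and were present in 5 of these 8, against 3.44% of 32851 mouse promoters of the same length. The stretches that hold them are given 5′ to 3′ on the strand of the gene, with every base of a match in capitals. A match that reads TTTC, any 2 bases and TTTC is the same motif on the opposite strand.
Isg15, chr4:156200856-156200915, minus strand: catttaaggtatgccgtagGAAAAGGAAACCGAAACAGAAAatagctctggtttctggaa
Bst2, chr8:71537565-71537624, minus strand: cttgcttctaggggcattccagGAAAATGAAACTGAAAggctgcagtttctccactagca
Ifit1, chr19:34640770-34640828, plus strand: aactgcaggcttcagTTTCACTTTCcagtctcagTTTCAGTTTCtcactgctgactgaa
Ifit3, chr19:34583365-34583424, plus strand: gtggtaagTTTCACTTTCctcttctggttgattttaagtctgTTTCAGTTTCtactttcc
Stat2, chr10:128270251-128270310, plus strand: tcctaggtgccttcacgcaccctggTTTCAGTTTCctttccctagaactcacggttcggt

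Isg15 carried 3 overlapping matches and Bst2 carried 2 overlapping matches, while Ifit1 and Ifit3 each carried 2 separate ones and Stat2 carried 1. The match of Stat2 began 222 bases before the start, farther than the matches of the other 4 genes, which began between 66 and 156 bases before it. Irf7, Irf9 (2 annotated starts) and Oasl2 held no match in these windows, and Rtp4 had no entry. The gamma-activated site TTCNNNGAA, which reads the same on both strands, was found in Bst2 alone, against 8.30% of all promoters, and its match shared bases with the first ISRE match. Of the other type I interferon-stimulated genes in the lists used here, 20 of 43 with a promoter entry held the ISRE letters. A match of letters is a description of the sequence and not a measured binding site.

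**Figure D1:**
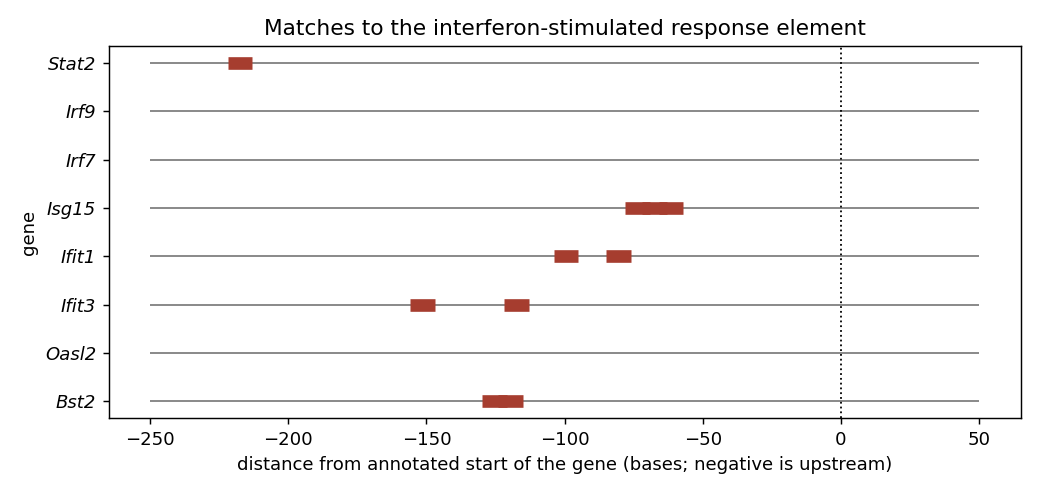
Position of each ISRE match (red bars) in the promoter window of 8 genes, with the distance from the annotated start in bases on the horizontal axis and upstream to the left. The matches of Isg15 lie closest to the start, that of Stat2 lies farthest, and Irf9, Irf7 and Oasl2 show none.

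The first question was whether the subunits that carry the interferon signal differed between OIR and control retinas. Stat2 had a lowest, median and highest value of 1072, 1266 and 1513 normalized reads in nOIR p14 mice and of 1044, 1265 and 1515 in OIR p14 mice. At p17 the corresponding values were 1060.1, 1257 and 1552 in controls and 1014, 1314 and 1528 in OIR mice. The groups overlapped almost completely at both ages. For Stat2 the log2 fold change (OIR against nOIR, limma, on log2 of normalized reads + 1) had a 95% interval of -0.26 to 0.26 at p14 and of -0.20 to 0.29 at p17, with Benjamini-Hochberg adjusted p-values of 0.999 and 0.877.

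Irf9, the DNA-binding subunit of the complex, had the smallest adjusted p of the 9 genes at p14. It ranged from 241 to 377 normalized reads in nOIR p14 mice (median 287) and from 373 to 912 in OIR p14 mice (median 843). Of the 6 OIR mice, 5 lay above every control, and the exception was OIR p14 S2 with 373, just below the highest control. OIR mice were higher by 1.31 ± 0.23 on the log2 scale (SE, limma, adjusted p = 0.000406), and an exact permutation test (two-sided) gave p = 0.00433. At this age 2 of the 9 genes were called higher, against 3.18% of all genes tested, and 0 were called lower, against 2.91% (0 also at an unadjusted p under 0.05 by limma, and 0 by edgeR and DESeq2).

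At p17, Irf9 ranged from 235 to 555 normalized reads in controls (median 277) and from 428 to 1306 in OIR mice (median 770.3). Overlap came from a single control, S6, whose 555 exceeded the values of OIR p17 mice S1 and S7, and 6 of 8 OIR mice lay above every control. Its log2 fold change was 1.32 ± 0.22 (limma, adjusted p = 4.29e-05, exact permutation p = 0.002). The OIR effect of Irf9 therefore had nearly the same size at both ages, with a difference of 0.02 on the log2 scale and a 95% interval of -0.63 to 0.67.

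Irf7 is a transcription factor that is itself induced by interferon and then drives further interferon production. At p14 it ranged from 369 to 660.5 normalized reads in controls (median 545) and from 428 to 865 in OIR mice (median 734), and the groups overlapped. Its log2 fold change was 0.36 ± 0.16, which did not pass the test (limma, adjusted p = 0.25).

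At p17, Irf7 ranged from 336 to 531 in controls (median 479) and from 919 to 1625 in OIR mice (median 1302). Every OIR mouse was above every control, which was true of 2 of the 9 genes (Irf7 and Bst2) and of 3.90% of all genes tested. OIR mice were higher by 1.52 ± 0.15 on the log2 scale (limma, adjusted p = 1.08e-08), a 2.87-fold difference, and the exact permutation p of 0.000666 is the smallest that 8 against 6 mice allow. In all, 7 of the 9 genes were called higher at p17, against 7.39% of all genes tested, and 0 were called lower, against 5.12% (0 at an unadjusted p under 0.05 by limma, and 0 by edgeR and DESeq2).

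**Figure D2:**
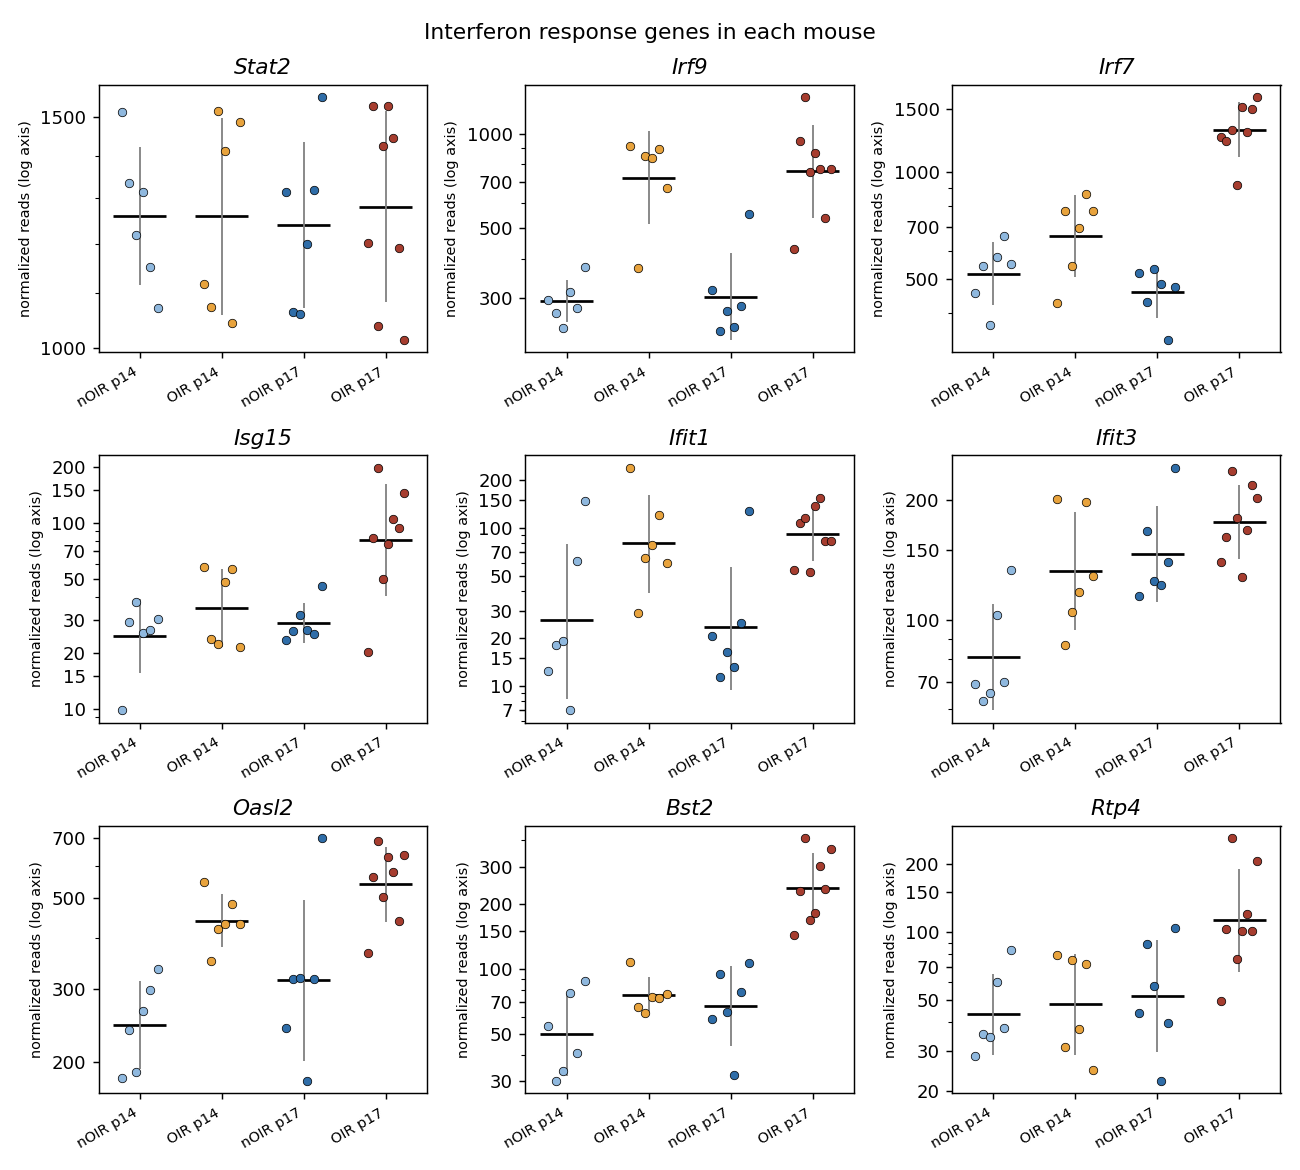
Normalized reads (log axis) of the 9 genes in each of the 26 mice, with points in the order of mouse number. Black lines are means taken on the log2 scale, and grey lines span 1 SD on either side. Irf7 and Bst2 separate OIR p17 from all other groups, Irf9 is higher in OIR mice at both ages, and Stat2 is level over the 4 groups.

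Among the effector genes, Isg15 encodes a ubiquitin-like protein that is attached to other proteins. It ranged from 9.77 to 37.4 normalized reads in nOIR p14 mice (median 27.9) and from 21.4 to 58.0 in OIR p14 mice (median 35.8). These groups overlapped, and the log2 fold change of 0.48 ± 0.40 did not pass the test (limma, adjusted p = 0.626). At p17 it ranged from 23.4 to 45.7 in controls (median 26.3) and from 20.2 to 198 in OIR mice (median 88.0).

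In 7 of 8 OIR p17 mice Isg15 was above every control, while OIR p17 S1, the mouse with the fewest reads, was below every control. Isg15 was higher in OIR mice by 1.45 ± 0.38 on the log2 scale (limma, adjusted p = 0.00805, exact permutation p = 0.00799).

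Ifit1 and Ifit3 encode proteins with tetratricopeptide repeats that bind viral RNA and act together. Ifit1 ranged from 7.01 to 149 normalized reads in nOIR p14 mice (median 18.8) and from 29.0 to 241 in OIR p14 mice (median 71.3). All 6 OIR mice lay above the control median, but control S7 with 149 exceeded 5 of them. The log2 fold change of 1.58 ± 0.58 did not pass the test (limma, adjusted p = 0.122), and without nOIR p14 S7 it was 2.07 with an adjusted p of 0.0203.

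At p17, Ifit1 ranged from 11.3 to 127 in controls (median 18.5) and from 52.6 to 154 in OIR mice (median 95.2). Control S6 held the value of 127 and the other 5 controls had at most 25.05, below every OIR mouse. The log2 fold change of 1.92 ± 0.54 was called by limma (adjusted p = 0.0156) but not by edgeR (1.48, adjusted p = 0.113) or DESeq2 (1.47, adjusted p = 0.0959). It also lost the call without nOIR p17 S2, with 1.72 and an adjusted p of 0.0502, and without nOIR p17 S6 it was 2.40 with an adjusted p of 0.00153.

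Ifit3 ranged from 63.1 to 134 normalized reads in nOIR p14 mice (median 69.7) and from 87.0 to 201 in OIR p14 mice (median 124). The groups overlapped, and the log2 fold change of 0.71 ± 0.23 missed the threshold (limma, adjusted p = 0.0639). It passed without nOIR p14 S7 (0.86, adjusted p = 0.0239) and without OIR p14 S2 (0.83, adjusted p = 0.0271). It was also called by DESeq2 (0.73, adjusted p = 0.0278), and by limma with a mean of 10 or more (adjusted p = 0.0472) or with equal totals (adjusted p = 0.0385), but not by edgeR (adjusted p = 0.0621). At p17 Ifit3 ranged from 115 to 241 in controls (median 133) and from 128 to 236 in OIR mice (median 175), with a log2 fold change of 0.26 ± 0.21 (limma, adjusted p = 0.534).

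The values of Ifit3 have a limit, since 51.2% of its 50-base words also occur in transcripts of Ifit3b, a near copy, so reads from that sequence could not be assigned to either gene with certainty. Ifit3b itself did not pass at p14 (log2 fold change 0.57 ± 0.30, limma, adjusted p = 0.343) or at p17 (-0.41 ± 0.28, adjusted p = 0.427). For Ifit1 the share of such words in other genes was 7.13%, nearly all in its relatives Ifit1bl1 and Ifit1bl2.

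Oasl2 encodes a protein of the oligoadenylate synthetase family, which responds to viral RNA. It ranged from 183 to 336 normalized reads in nOIR p14 mice (median 253) and from 351 to 549 in OIR p14 mice (median 432). Every OIR mouse was above every control, and Oasl2 was the only 1 of the 9 genes for which this held at p14, against 1.91% of all genes tested. The log2 fold change was 0.84 ± 0.22 (limma, adjusted p = 0.0166, exact permutation p = 0.00216, the smallest that 6 against 6 mice allow).

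At p17, Oasl2 ranged from 179.7 to 700.1 in controls (median 318) and from 369 to 687 in OIR mice (median 571). The highest of all these values belonged to control S6, and the other 5 controls, with at most 319.8, lay below every OIR mouse. Its log2 fold change was 0.77 ± 0.20 (limma, adjusted p = 0.00876, exact permutation p = 0.0167).

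Bst2, also called tetherin, holds budding enveloped viruses at the cell surface. It ranged from 30.2 to 87.9 normalized reads in nOIR p14 mice (median 47.4) and from 62.5 to 108 in OIR p14 mice (median 73.9). The groups overlapped, and the log2 fold change of 0.60 ± 0.29 did not pass (limma, adjusted p = 0.298). At p17 it ranged from 32.0 to 106 in controls (median 70.7) and from 145 to 408 in OIR mice (median 233).

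No control reached the lowest OIR p17 mouse in Bst2. OIR mice were higher by 1.81 ± 0.27 on the log2 scale, a 3.51-fold difference (limma, adjusted p = 1.34e-05, exact permutation p = 0.000666).

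Rtp4 encodes a receptor-transporting protein that is induced by interferon. It ranged from 28.4 to 83.7 normalized reads in nOIR p14 mice (median 36.7) and from 24.7 to 79.7 in OIR p14 mice (median 54.7), and its log2 fold change was 0.15 ± 0.39 (limma, adjusted p = 0.915). At p17 it ranged from 22.1 to 104 in controls (median 50.9) and from 49.8 to 260.5 in OIR mice (median 103). The groups overlapped at both ages, and 3 of 8 OIR p17 mice lay above every control.

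The p17 log2 fold change of Rtp4, 1.09 ± 0.36, passed narrowly (limma, adjusted p = 0.0469, exact permutation p = 0.0246). When each of the 26 mice was left out in turn, 15 of the fits lost this call, with adjusted p-values of up to 0.16 (without nOIR p17 S4). Of its 50-base words, 11.6% also occur in Gm45338, a gene model that overlaps its exons on the same strand.

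**Figure D3:**
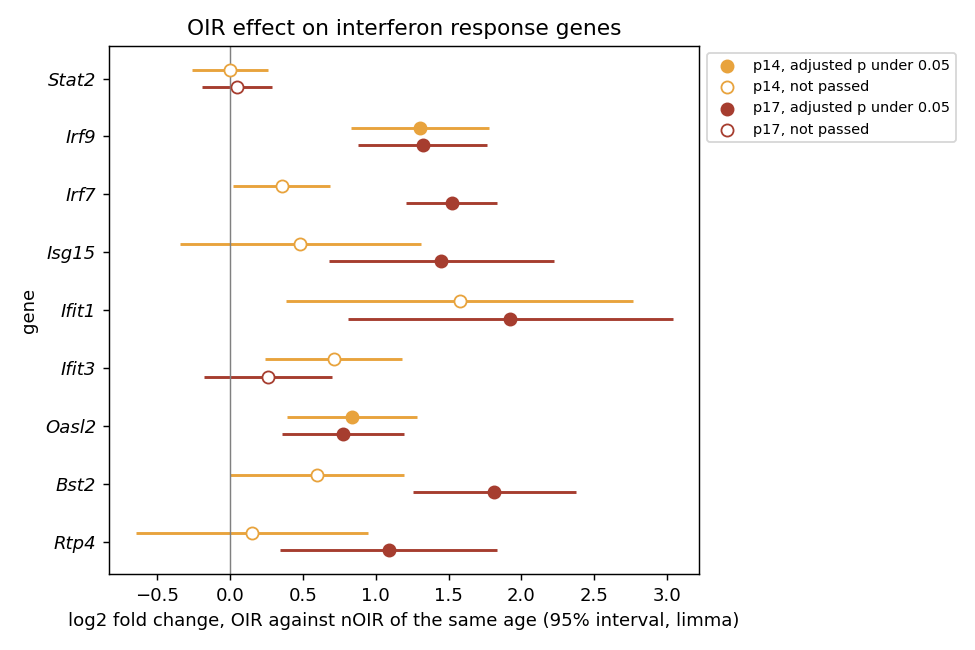
Log2 fold change of OIR against nOIR mice of the same age for the 9 genes, with 95% intervals from limma. Filled points passed an adjusted p of 0.05. At p17 the filled points run from 0.77 (Oasl2) to 1.92 (Ifit1), and at p14 only Irf9 and Oasl2 are filled.

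Over the 9 genes, the effect of OIR had a median of 0.60 (p14) and 1.32 (p17) as a log2 fold change, beside 0.02 and -0.02 over all genes tested. With all 26 mice, none of the 9 reached the log2 fold change of 2 that the study required of a differentially expressed gene, at either age. Ifit1 passed it without nOIR p14 S7 at p14 (2.07) and without nOIR p17 S6 at p17 (2.40). The comparisons at p14 and p17 share no mice, and the difference between their effects was tested in the same fit. Only Irf7 passed, with an OIR effect larger by 1.17 ± 0.22 at p17 (limma, adjusted p = 0.00263), and 1.58% of all genes tested passed in either direction. Bst2 had a difference of similar size, 1.22 ± 0.40, that did not pass with limma (adjusted p = 0.159) or with edgeR (1.31, adjusted p = 0.105) and passed with DESeq2 (1.30, adjusted p = 0.0351), the only alternative that called it. The differences of Isg15 (0.97 ± 0.55) and Rtp4 (0.94 ± 0.53) had intervals that included 0, and that of Ifit3 was -0.45 ± 0.31.

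The age comparisons within each treatment asked whether the genes changed between p14 and p17. In nOIR retinas, 0 of the 9 genes passed with limma, against 0.317% of all genes tested. At an unadjusted p under 0.05, which 7.37% of all genes reached, there was 1, Ifit3, with a log2 fold change of 0.85 ± 0.23 (adjusted p = 0.132). It was called by DESeq2 (0.85, adjusted p = 0.033), while edgeR called 0.

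In OIR retinas, Irf7, Bst2 and Rtp4 rose from p14 to p17, that is 3 of the 9 genes, against 4.11% of all genes tested, and 0 fell, against 1.81% (0 also by edgeR and DESeq2). Irf7 rose by 0.99 ± 0.15 on the log2 scale (limma, adjusted p = 6.62e-05) and Bst2 by 1.65 ± 0.27 (adjusted p = 0.000192). In both, every OIR p17 mouse lay above every OIR p14 mouse, which was true of 1.41% of all genes tested. The value of Rtp4, 1.21 ± 0.36 (adjusted p = 0.0448), lost its call in 14 of 26 fits that left out a mouse, with adjusted p-values of up to 0.134 (without OIR p14 S6). Isg15 had a log2 fold change of 1.19 ± 0.38 (adjusted p = 0.0593), which was called by edgeR (1.35, adjusted p = 0.0212), by DESeq2 (1.33, adjusted p = 0.00364) and by limma in 5 of the 26 fits, for example without OIR p17 S1 (1.47, adjusted p = 0.00459). Irf9, Stat2, Ifit1, Ifit3 and Oasl2 did not pass in OIR mice, with log2 fold changes from 0.02 to 0.40.

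Ordered by their medians, the groups fell into different patterns. For Irf7 and Bst2 the OIR p17 group stood alone at the top and the other 3 groups overlapped, with no call between OIR p14 and nOIR p14 or between the controls. For Irf9 the OIR groups of both ages were neighbours at the top, and the controls of both ages were neighbours below, without a call between neighbours. Ifit3 had its lowest median in nOIR p14 mice, but that group overlapped each of the other 3 groups, which also overlapped one another. Limma called Ifit3 in no comparison.

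How the genes varied within groups was described over 26 mice, after each value was taken as a deviation from its group mean on the log2 scale. The median Pearson r over the 36 pairs of genes was 0.49, and 28 pairs were above 0. With the mean of the other 8 genes, r was 0.878 for Oasl2, 0.792 for Irf9, 0.765 for Rtp4, 0.690 for Ifit3, 0.688 for Bst2, 0.655 for Ifit1 and 0.608 for Isg15. Stat2 and Irf7 did not follow the other genes from mouse to mouse, with r of -0.194 and -0.00367. These points share library and normalization, and no test was made of them.

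Single mice deviated in many genes at once. In nOIR p17 S6, every gene except Irf7 was the highest of its group, among them Oasl2 with 700.1 and Ifit1 with 127 normalized reads. OIR p14 S1 was highest in 7 genes and lowest in Irf7 (428), and OIR p17 S3 was highest in 6. OIR p17 S1 was lowest in 5 genes. The median r over the 36 pairs was 0.36 without nOIR p14 S7 and nOIR p17 S6 (24 pairs above 0), and 0.22 without these and the 3 OIR mice named here (27 pairs above 0). Without nOIR p14 S7 and nOIR p17 S6 together, 4 of the 9 genes (Irf9, Ifit1, Ifit3 and Oasl2) were called higher at p14 and 7 at p17, against 2.57% and 6.77% of all genes in the same fit. These mice were chosen for their high values in the 9 genes, and the OIR mice with high values were kept.

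**Figure D4:**
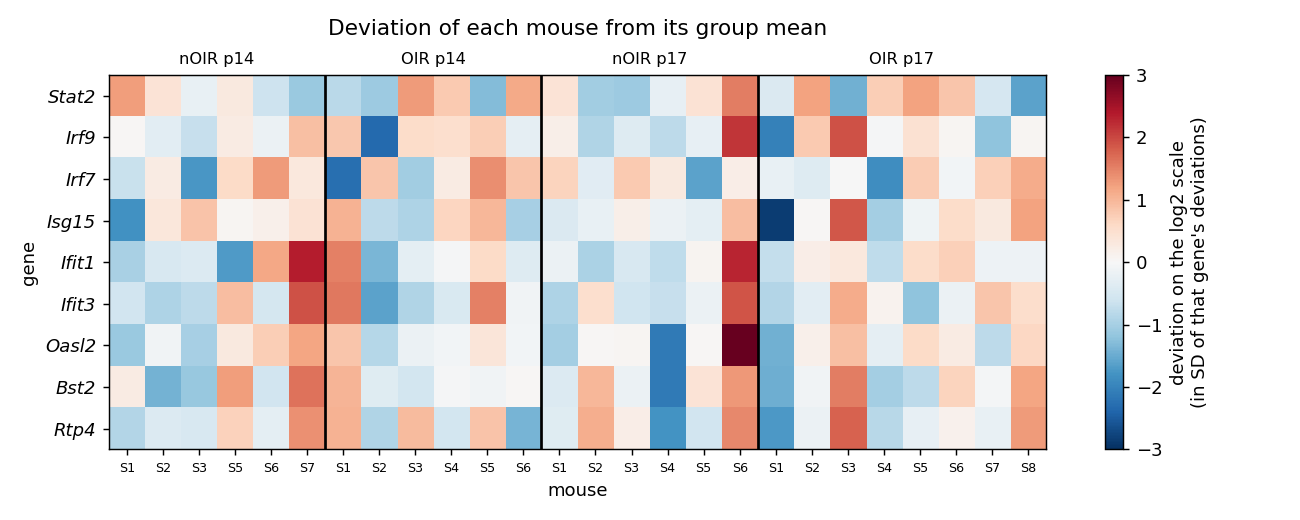
Deviation of each of the 26 mice (columns, by group) from its group mean for the 9 genes (rows), in units of the SD of that gene's deviations. Most genes are above the group mean (red) in nOIR p14 S7 and nOIR p17 S6 and below it (blue) in OIR p17 S1, while Stat2 is blue in S7 and red in S6.

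The 10 further genes most like the mean of the 9, among 18995 genes whose mean over the mice was 10 normalized reads or more, had r between 0.704 and 0.765. They were Gbp7, Lgals3bp, Csrp2, Ssc4d, Usp18, Ifitm3, Mettl16, Hebp1, 2210408F21Rik and S100a6. Gbp7, Lgals3bp, Usp18 and Ifitm3 are in the interferon lists used here, and without nOIR p14 S7 and nOIR p17 S6 the r of all 10 ranged from 0.546 (Mettl16) to 0.815 (S100a6), with 0.556 (Lgals3bp) to 0.808 (Ifitm3) for these 4. Of the 100 genes most like the mean, 15 (15.0%) were in an interferon list, against 93 (0.490%) of the genes compared.

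Of 21 genes that encode interferons, 6 had values here (Ifnb1, Ifna9, Ifnab, Ifnk, Ifnz and Ifnl2), and none reached the mean of 1 normalized read needed for a test. Ifnb1, the type I interferon that most cell types can make, had 15 reads in 26 mice. Of these, 10 reads (11.4 normalized reads) were in OIR p14 S1, 3 were in OIR p17 S5, and 1 each in nOIR p14 S6 and OIR p14 S6. OIR p14 S1 was the highest of its group in 7 of the 9 genes and the lowest in Irf7. These are reads after PCR and not independent molecules. nOIR p14 S7 and nOIR p17 S6 had 0 reads of Ifnb1. OIR p14 S5 also had 0, and its mean standardised deviation over the 9 genes was 0.556, beside 0.531 in OIR p14 S1. Whether Ifnb1 and the 9 genes go together was not tested. The other 15, interferon gamma and most interferon alpha genes among them, were not analysed here.

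Of the 9 receptor and JAK-STAT genes reported here, 0 were called higher at p14 and 3 at p17, against 3.18% and 7.39% of all genes tested, and none was called lower at either age by limma, against 2.91% and 5.12%. At p14, edgeR and DESeq2 also called 0, and 1 (Ifnar1) had an unadjusted p under 0.05. The receptor subunits Ifnar1 and Ifnar2 were higher at p17 by 0.38 ± 0.09 (limma, adjusted p = 0.00479) and 0.61 ± 0.17 (adjusted p = 0.0122), as was Il10rb, a receptor subunit shared by interferon lambda and interleukin 10, by 0.65 ± 0.15 (adjusted p = 0.00259). The median log2 fold change of this list was 0.08 at p14 and 0.18 at p17.

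Of the 16 nucleic acid sensors and adaptors, 0 were called higher at p14 by limma, against 3.18% of all genes, and 5 at p17, against 7.39%, with median log2 fold changes of 0.56 and 0.78. At p14, 7 had an unadjusted p under 0.05, edgeR called 0 and DESeq2 called 3 higher (Ticam1, Tlr3 and Irf5). Sting1, the adaptor that responds to cytosolic DNA, was higher at p17 by 2.16 ± 0.22 (limma, adjusted p = 2.23e-08), with 32.5 to 61.8 normalized reads in controls and 123 to 241 in OIR mice. At p14 its log2 fold change was 0.08 ± 0.24 (adjusted p = 0.927). Irf5, Ticam1, Myd88 and Ddx58, which encodes the RNA sensor RIG-I, made up the other 4, with values from 0.56 (Ddx58) to 1.16 (Ticam1). Ddx58 passed narrowly (limma, adjusted p = 0.0468) and was called by neither edgeR nor DESeq2. At p17, edgeR called 4 higher, without Ddx58, and DESeq2 called 5, with Tlr3 in its place. The share of all genes called by edgeR or DESeq2 is not given.

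Of 55 other type I interferon-stimulated genes, 8 were called higher and 3 lower at p14, against 3.18% and 2.91% of all genes tested, and 20 higher and 1 lower at p17, against 7.39% and 5.12%, with median log2 fold changes of 0.48 and 0.68. Cxcl10, a chemokine that attracts T cells, had the largest values, 3.16 ± 0.64 at p14 (limma, adjusted p = 0.00166) and 3.74 ± 0.60 at p17 (adjusted p = 2.93e-05), at low levels of 2.35 to 52.1 mean normalized reads per group. Ifitm3, which blocks viral entry, was higher at p17 by 2.30 ± 0.27 (adjusted p = 2.47e-07), and Lgals9, a galectin, by 1.75 ± 0.18 (adjusted p = 2.51e-08). Lgals3bp was higher at both ages, by 0.80 ± 0.19 (adjusted p = 0.00723) and 1.17 ± 0.18 (adjusted p = 1.35e-05).

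The few lower calls in that list included Slfn5 and Cmpk2. Slfn5 was lower in OIR mice at p14 by limma (log2 fold change -1.38 ± 0.23, adjusted p = 0.000223) with no overlap between 59.7 to 112 normalized reads in controls and 17.1 to 48.6 in OIR mice, and had 0.47 ± 0.22 at p17 (adjusted p = 0.188). Cmpk2, a mitochondrial nucleotide kinase, was lower at both ages, with log2 fold changes of -0.44 ± 0.11 (adjusted p = 0.0116) and -0.59 ± 0.10 (adjusted p = 9.56e-05). Usp18, which removes Isg15 from proteins and restrains the receptor, did not pass at p14 (1.11 ± 0.40, adjusted p = 0.108) or p17 (0.79 ± 0.37, adjusted p = 0.194). The count of 8 at p14 ranged from 3 (without OIR p14 S5) to 9 when each mouse was left out in turn. The share of all genes called in those fits is not given.

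A further list was labelled interferon gamma-selective, but type I interferon acts on an overlapping set of genes. Of 18 tested genes of this list, 3 were called higher at p14 (Gbp2, Irf1 and Irf8), against 3.18% of all genes tested. At p17, 10 were called higher, against 7.39%, and 0 were called lower at either age by limma. The median log2 fold changes were 0.47 and 0.93. Which interferon these calls follow was not tested. Irf8, a transcription factor of myeloid cells, was higher by 1.17 ± 0.20 at p14 (adjusted p = 0.000335) and by 1.84 ± 0.19 at p17 (adjusted p = 2.1e-08), without overlap at either age. The immunoproteasome genes Psmb8 and Psmb9 were higher at p17 by 1.15 ± 0.20 and 1.03 ± 0.19 (adjusted p = 0.000146 and 0.000197). Of 7 negative regulators, Socs3, an inhibitor of JAK kinases that many cytokines induce, was higher by 2.96 ± 0.37 at p14 and 2.66 ± 0.35 at p17 (limma, adjusted p = 2.58e-06 and 1.22e-06), and Ptpn6 was higher at p17 by 1.15 ± 0.30 (adjusted p = 0.00845).

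**Figure D5:**
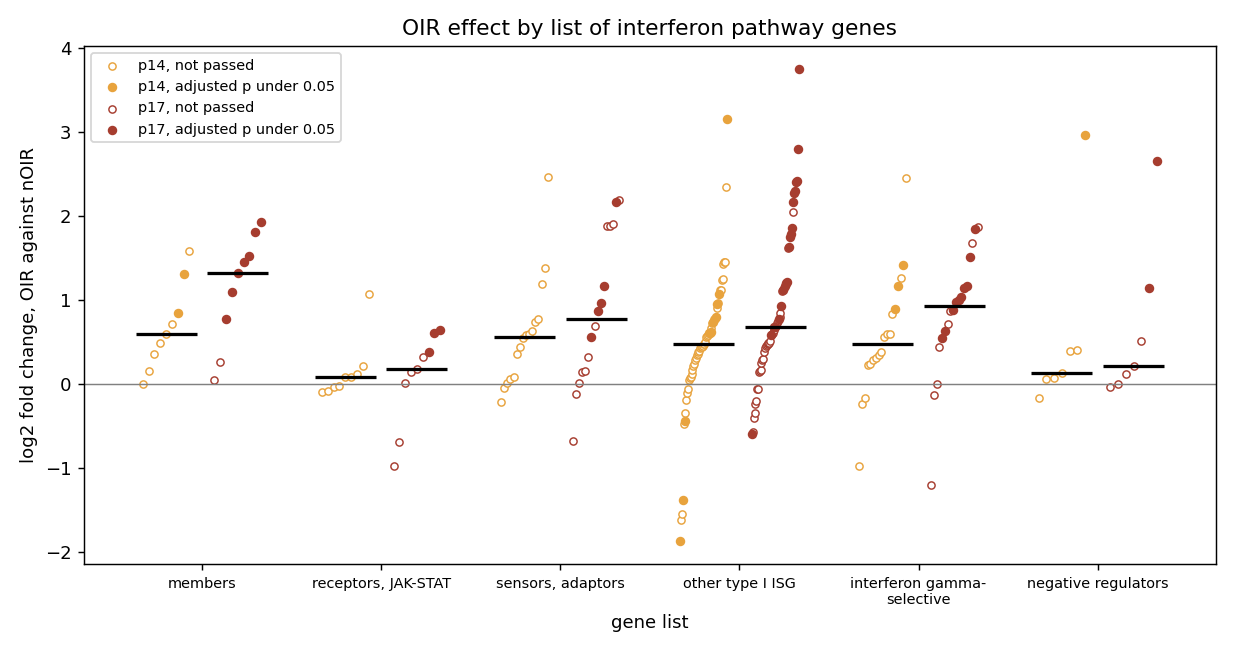
Log2 fold change of OIR against nOIR mice of the same age for every tested gene of 6 lists of the interferon pathway, p14 in orange and p17 in red. Filled points passed an adjusted p of 0.05 and black lines are medians. The median of the 9 genes described here moves from 0.60 to 1.32, and that of the receptors and JAK-STAT genes from 0.08 to 0.18.

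In whole retina, more cells of a type and more RNA per cell cannot be told apart, and markers of other cell types moved with the OIR effect. Among all genes tested, limma called 3.18% higher and 2.91% lower at p14, and 7.39% higher and 5.12% lower at p17. These shares stand beside all the marker counts that follow. Of 8 microglia markers, 2 were called higher at p14 (C1qa and C1qb) and 6 at p17. Their summed level ranged from 2389 to 3103 normalized reads in nOIR p14, 2611 to 3979 in OIR p14, 2061 to 2344 in nOIR p17 and 3523 to 6286 in OIR p17 mice, so that the groups did not overlap at p17. Macrophage and monocyte markers were called higher for 1 of 6 tested at p14 and for 5 of 6 at p17, with Lyve1 lower (summed level 791 to 977 in controls and 810.5 to 1672 in OIR mice). Of 5 endothelial markers, Pecam1 was higher at p14 (0.40, limma, adjusted p = 0.0322) and Cldn5 lower (-0.83, adjusted p = 0.00035), with sums of 2631 to 2927 in controls and 1854 to 3089 in OIR mice. All 5 were higher at p17, with sums of 2137 to 2715 in controls and 5079 to 6877 in OIR mice.

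T and NK cell markers summed to at most 23.1 normalized reads in any mouse. Cd3e, Cd3g, Cd2 and Nkg7 were at 0 in all nOIR p17 mice and in all OIR p14 mice. In OIR p17 no marker of this list was at 0 in all mice. The median sum was 10.3 in OIR p17 mice, beside 0.464 in nOIR p17 mice. Of 3 T and NK cell markers tested, limma called 0 at either age. Their p17 log2 fold changes ran from 0.69 (Cd3d) to 1.31 (Cd2, adjusted p = 0.103). Neutrophil markers summed to at most 40.5. Of 3 neutrophil markers tested, S100a8 was called higher in OIR mice at p17 (2.03, limma, adjusted p = 0.0138) and rose in them between ages, while S100a9 (0.62, adjusted p = 0.632) and Ngp (0.34, adjusted p = 0.821) did not pass at p17. Of 4 plasmacytoid dendritic cell markers tested, none was called at either age by limma. Müller glia markers were lower for 3 of 4 at both ages. Of the 3 rod markers, Gnat1 was lower at p14 (-0.52, limma, adjusted p = 0.0093) and Pde6b at p17 (-0.24, adjusted p = 0.0245). Their summed level ranged from 435051 to 518037 in nOIR p14 and from 286247 to 407570 in OIR p14 mice, without overlap, and from 471442 to 637475 in nOIR p17 and from 406088 to 668204 in OIR p17 mice. The part that any of these cell types had in the results of the 9 genes was not tested. In nOIR p14 S7 and nOIR p17 S6, the sums of microglia markers (2645 and 2258) and endothelial markers (2837 and 2277) lay inside the range of their groups. S7 had the highest rod sum of its group (518037), and S6 had the highest neutrophil sum (11.7) and the lowest macrophage and monocyte sum (791) of its group. Over the deviations of the 26 mice from their group means, r between the mean of the 9 genes and the summed level was highest for neutrophil markers (0.509) and rod markers (0.427) among 10 marker lists. It was 0.351 for retinal pigment epithelium, 0.349 for endothelial cells, 0.346 for microglia and 0.355 with the number of recovered reads.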

How the data were processed

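Whole retina libraries of 27 mice were sequenced by the authors after PCR amplification of cDNA from a kit that does not mark strand. Per the labels and the methods, the authors aligned reads with STAR 2.7.8a, counted them on Gencode M28 genes with featureCounts 2.0.1 at its default setting, which ignores strand, and divided them by a DESeq2 1.34 size factor per mouse. The deposited signal is therefore normalized reads, and whole reads were recovered for 100% of the values, within 0.001. The deposited table also holds 8 columns of the authors' group means, fold changes and adjusted p-values, which were not used. The authors' exclusion of nOIR p14 S4 was kept, which left 26 mice.

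Limma 3.58.1 (lmFit, eBayes with trend, R 4.3.3) was fitted to log2 of the normalized reads plus a pseudocount of 1, for genes with a mean of 1 or more, over all 4 groups, with Benjamini-Hochberg adjustment over all genes tested. The pseudocount shrinks the fold changes of low genes on this scale, and that of Ifit1 at p17 was 1.98 with a pseudocount of 0.1 and 1.73 with 5. Each of the 9 genes was also put through exact permutation of the mice (scipy 1.17.1), two-sided, on its mean log2 values. The fit was tested on simulated data. Within groups, the lowest chi-square between the reads of any pair of mice was 9.39 per degree of freedom, so no library was a copy of another of its group.

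The 9 genes and all lists were chosen with earlier results of these data known. Further genes named are, per list and age, up to 5 with the smallest adjusted p and a mean of 10 or more, together with Ifnb1, Ifnar1, Ifnar2, Usp18, Ifit3b and Ifit1bl1, and the 10 genes most like the mean of the 9. Not every such gene is given, some genes are not reported here and were left out of the lists, and Nrl, Crygs and other markers stand for their lists. Promoters are from RefSeq on GRCm38.p6, and shared words from Gencode M21 transcripts on GRCm38, while the authors' annotation is on a later build. Alternatives were pseudocounts of 0.1 and 5, all genes above 0, a mean of 10 or more, S4 included, the compared groups only, a block by mouse number, quantile normalization, equal totals, DESeq2 1.42.0 and the quasi-likelihood test of edgeR 4.0.16 (both run on the recovered reads), the study's fold threshold, and each mouse left out in turn. The joint removal of nOIR p14 S7 and nOIR p17 S6, and the correlations without single mice, were added after seeing the data.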

Additional observations from a re-analysis of the deposited data

Results flagged for a closer look

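Among the 36 combinations of a gene and a group, 5 values, from 4 mice, lay farther from the rest of their group than Dixon's 95% limit allows, and chance alone gives about 1 in 20. OIR p14 S2 had 373 normalized reads of Irf9, while the other 5 mice of its group had 672 or more. nOIR p17 S6 had 555 of Irf9 and 127 of Ifit1, far above the other controls of its age. nOIR p14 S1 had 9.77 of Isg15, below the other controls. OIR p14 S1 had 108 of Bst2, above the other 5 OIR p14 mice. The OIR effect of Irf7 differed between the ages, being larger by 1.17 on the log2 scale at p17 (limma, adjusted p = 0.00263).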

How the results depend on the processing

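Among the alternatives for single genes, 497 of 531 values kept their direction and their side of the threshold, 12 gained a call, 11 lost one and 11 turned in sign, and 1089 of 1170 were kept when each mouse was left out. With the study's fold threshold, 0 of the 9 genes were called higher at p14, 0 at p17, 0 for the difference and 0 between ages in OIR mice. At that threshold, 1 and 7 of the other interferon-stimulated genes were called higher at p14 and p17. The share of all genes was not counted at the fold threshold, so these counts have no background beside them. Without that threshold, the count of the 9 genes called higher at p14 was 4 without nOIR p14 S7 and nOIR p17 S6 together. It was 2 to 4 with each mouse left out (4 without nOIR p14 S7). DESeq2 called 2 genes for the difference (Irf7 and Bst2) and 1 (Ifit3) between ages in nOIR mice. The 8 other interferon-stimulated genes called higher at p14 were 3 with the compared groups only, 3 with quantile normalization, and 3 to 9 with each mouse left out, where nOIR p14 S2 and S5 and OIR p14 S1, S3, S4 and S5 each lowered the count to 5 or fewer. The cause of these shifts was not tested. The share of all genes called with these settings, with a mouse left out or with DESeq2 is not given, so these counts have no background beside them. Rtp4 at p17 also lost its call with all genes above 0, the compared groups only, a pseudocount of 0.1 and quantile normalization.

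Every value that turned in sign was one that passed no test. For Stat2 at p14 the log2 fold change was 0.0091 with DESeq2, 0.012 with edgeR, 0.016 with quantile normalization and 0.043 with equal totals. For the difference between ages it was -0.026 (DESeq2) and -0.019 (edgeR) in Irf9, and 0.077 in Oasl2 without S7 and S6. Between ages it was -0.052 in Irf9 in nOIR mice without S7 and S6, and -0.0039 in Ifit1 in OIR mice with DESeq2. With each mouse left out, Stat2 ran from -0.054 to 0.053 at p14, from -0.0073 to 0.11 for the difference, from -0.087 to 0.031 between ages in nOIR mice and from -0.029 to 0.078 in OIR mice. Irf9 ran from -0.17 to 0.19 for the difference, from -0.13 to 0.12 in nOIR mice and from -0.12 to 0.19 in OIR mice. Ifit1 ran from -0.15 to 0.82, from -0.62 to 0.35 and from -0.080 to 0.52 in the same order, Isg15 from -0.026 to 0.34 in nOIR mice, and Oasl2 from -0.22 to 0.17 for the difference.

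Mouse numbers showed no pairing throughout the samples, since 34 same-numbered pairs had deviations correlated at -0.233 to 0.330, with 7 above 0.1. Of these pairs, 8 were best with their own number. For number 1, r was 0.253 to 0.330 among nOIR p14, nOIR p17 and OIR p17, and -0.122 to -0.0188 between OIR p14 and these groups. A link between mice of single numbers was not tested. With a replicate block, 3 genes were called higher at p14 (Ifit3 added) and 6 at p17 (Rtp4 lost, adjusted p = 0.142), against 2.69% and 6.96% of all genes in that fit, Rtp4 also lost its call between ages in OIR mice (adjusted p = 0.147), and Ifit1 turned to -0.15 for the difference and 0.17 between ages in nOIR mice. The compared groups alone could not give the difference between ages. Isg15, Ifit1, Bst2 and Rtp4 rest on 8 to 424 reads per mouse, which limits what their smaller differences can show.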
